A study of Mus musculus with 98 samples.

Results

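Stimulated mouse primary hippocampal neurons that carried extra Acss2 were compared with stimulated neurons that carried an empty vector, both kept in PBS without tau. The 6 libraries of this comparison, out of 98 in the series, were those whose titles name stimulation, PBS and either upACSS2 or vector: 3 upACSS2 libraries and 3 vector libraries. Per the labels, the neurons received the adeno-associated virus PhP.eB, carrying either upACSS2 or nothing (vector), on culture day 5 for 48 hours, were washed on day 7, given hAD-tau or PBS, and collected on day 21. The promoter that drives upACSS2, the stimulus and the strain of the stimulated cultures are not given in the sources used here, and unstimulated cultures of the series are labelled as CD1. The stimulated cultures with hAD-tau (3 upACSS2, 3 vector) and the unstimulated day 21 cultures in PBS (3 upACSS2, 3 vector) served as comparisons.

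ACSS2 is an enzyme of the cytoplasm and nucleus that joins acetate to coenzyme A and so makes acetyl-CoA. In neurons a nuclear pool of ACSS2 sits on chromatin and supplies acetyl-CoA for histone acetylation, and it has been linked to the transcription of genes that respond to activity and support memory. Cultures of embryonic hippocampus hold mostly glutamatergic pyramidal neurons, a smaller population of GABAergic interneurons, and glia. The comparison addresses which transcripts differ when ACSS2 is raised in neurons that have been stimulated but not exposed to tau.

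Total counts of the 6 libraries ran from 21686265 to 39985460. Stimulation was visible in the activity genes: Fos, the immediate-early transcription factor, stood at 1409 to 1706 CPM (read counts scaled by library size) in the stimulated vector libraries and at 29.9 to 80.6 CPM in the unstimulated ones, and Npas4, a neuron-specific factor induced by calcium entry, at 567 to 803 against 6.05 to 8.60 CPM. Replicate 2 of both virus groups stood apart from replicates 1 and 3. The summed CPM of 12 astrocyte markers was 6160 and 6865 in upACSS2 replicate 2 and vector replicate 2, and 10305 to 10695 in the other 4 libraries. Gfap weighed most in this sum, at 2091 and 2994 CPM in the replicate 2 libraries and 4827 to 5675 CPM in the others. Not every marker followed: Sox9 was highest in vector replicate 2 (215 CPM). On principal component 2, vector replicate 2 lay at -11.2, among the upACSS2 libraries (-28.2 to -3.92), whereas vector replicates 1 and 3 lay at 19.0 and 12.8. Nothing in the labels says that the libraries of a group came from separate cultures. The p-values therefore measure the spread between libraries only, which may be technical. That spread was estimated over the 12 stimulated libraries, those with hAD-tau included.

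The cultures are labelled as neurons, and 12 neuronal markers summed to 5752 to 6676 CPM with upACSS2 and 5978 to 6994 CPM with vector. Astrocyte markers were also abundant (6160 to 10695 CPM with upACSS2 and 6865 to 10695.1 CPM with vector), as were 12 oligodendrocyte lineage markers (1065 to 3455 CPM and 1260 to 2658 CPM). Cnp, a myelin enzyme gene, varied widely within each group and overlapped between them, at 431, 59.3 and 196 CPM with upACSS2 and 98.7, 259 and 131 CPM with vector. The 12 microglial markers summed to 21.5 to 23.1 CPM with upACSS2 and 26.0 to 26.5 CPM with vector, and 8 of them were too low to be tested. The 13 endothelial, mural and meningeal markers summed to 32.0 to 42.5 CPM and 29.2 to 40.4 CPM, and Cldn5, the tight junction gene that defines brain endothelium, was at 0 in all 6 libraries.

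Acss2 itself marked the upACSS2 libraries. It stood at 2745, 2079 and 3485 CPM in the 3 upACSS2 libraries and at 56.9, 46.0 and 57.9 CPM in the 3 vector libraries. Every upACSS2 library was far above every vector library, and the means differed 51.7-fold (log2 fold change 5.69 ± 0.24 SE, edgeR quasi-likelihood test with Benjamini-Hochberg adjustment over all genes, adjusted p = 1.77e-07). The exact two-sided permutation test gave p = 0.1, the smallest that 3 libraries against 3 allow. Transcripts of the viral copy and of the cell's own gene (GRCm38.p6, chromosome 2, 155518043 to 155562743, overlapped by the antisense gene Acss2os) cannot be told apart in these counts. The enzymes and carriers around it showed no like change: of 13 acetyl-CoA genes, among them Acly, which makes acetyl-CoA from citrate, none passed the test, and their median log2 fold change was 0.11. The highest of them per length, Acot7, Pdha1, Dld and Acat1, had log2 fold changes of 0.11, 0.14, 0.11 and 0.18. The mitochondrial and propionate-linked relatives Acss1 and Acss3 had 0.13 ± 0.15 and -0.89 ± 0.32 (adjusted p = 0.689 and 0.218).

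Of 14939 genes tested, 31 passed an adjusted p of 0.05 (0.208%), 14 of them higher with upACSS2 (0.0937%) and 17 lower (0.114%). In each of the 31, the values of the upACSS2 libraries did not overlap those of the vector libraries, which was so for 22.7% of all genes tested. The median log2 fold change over all genes was 0.00. Apart from Acss2, log2 fold changes ran from 0.58 to 1.23 among the genes that rose and from -2.82 to -0.43 among those that fell. The number of calls depended on single libraries: it was 8, 3 and 2 without upACSS2 replicate 1, 2 or 3, 1, 74 and 1 without vector replicate 1, 2 or 3, and 1 without replicate 2 of both groups, while DESeq2 called 420 genes, all 31 among them. A fit of only the 6 libraries compared, without the tau libraries, called 2 genes. Acss2 passed in all 6 fits that left out 1 library and Hapln1 in 4. Each of the other 29 called genes passed in at most 2 of these fits. The direction was the same throughout, which leaving out a library could hardly change, as the groups of each called gene did not overlap.

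**Figure D1:**
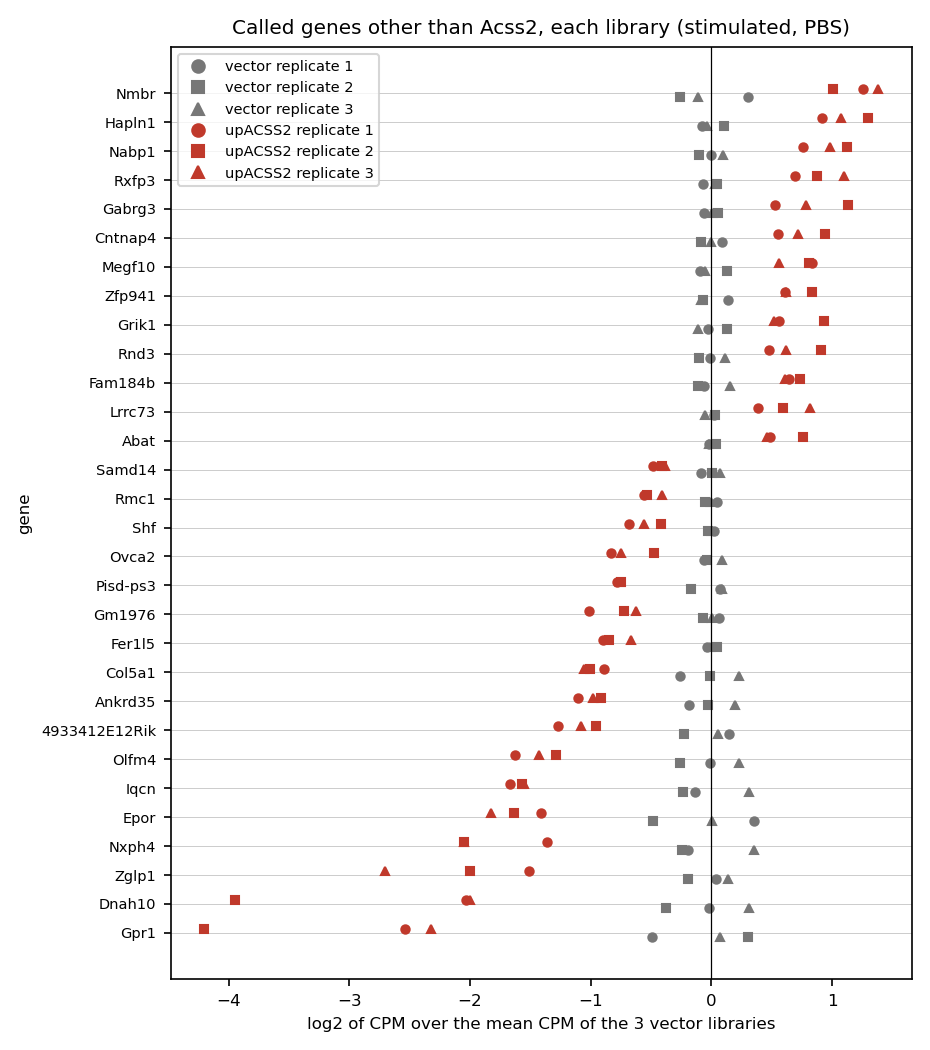
Level of the 30 called genes other than Acss2 in each of the 6 libraries, as log2 of CPM over the mean of the 3 vector libraries, with grey symbols for vector, red for upACSS2 and symbol shape for the replicate. For each gene the red and grey symbols occupy separate ranges, and upACSS2 replicate 2 is the highest for 9 of the 13 genes that rose.

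Of the 31 called genes, 23 had a promoter window in the set of windows at hand (GRCm38.p6). The upstream sequences of the 3 called genes of lowest p that had one, Acss2 aside, are shown. Each runs 5′ to 3′ on the gene's strand and ends at the most upstream annotated start, with CG dinucleotides, the sites of DNA methylation, in capitals. The window of Hapln1 is chr13:89540386-89540528 (plus strand), that of Rxfp3 chr15:11037969-11038218 (minus strand) and that of Olfm4 chr14:80000052-80000301 (plus strand).
Hapln1: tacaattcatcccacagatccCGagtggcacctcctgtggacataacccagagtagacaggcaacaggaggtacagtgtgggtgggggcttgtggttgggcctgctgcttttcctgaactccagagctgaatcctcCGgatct
Rxfp3: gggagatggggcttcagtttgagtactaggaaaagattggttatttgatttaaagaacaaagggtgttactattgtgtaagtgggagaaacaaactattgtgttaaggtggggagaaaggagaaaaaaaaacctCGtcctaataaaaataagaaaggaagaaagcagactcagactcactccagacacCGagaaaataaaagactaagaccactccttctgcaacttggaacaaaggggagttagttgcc
Olfm4: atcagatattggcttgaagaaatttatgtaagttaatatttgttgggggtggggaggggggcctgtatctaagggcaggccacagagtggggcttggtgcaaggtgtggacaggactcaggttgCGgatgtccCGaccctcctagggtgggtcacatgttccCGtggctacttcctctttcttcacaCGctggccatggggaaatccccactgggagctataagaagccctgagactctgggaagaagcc
These windows hold 2, 2 and 4 CG dinucleotides. Counted over the full 250 bases upstream of the RefSeq start in every gene, the 10 windows of genes that rose had a median of 8 CG, the 13 of genes that fell a median of 6, and all 27025 windows a median of 6. The AP-1 motif TGANTCA and the CRE motif TGACGTCA, letters bound by activity-regulated factors, were found on either strand in none of the 23 windows, and in 6.87% and 1.62% of all windows. The homeodomain core TAATTA was found in 1 of the 23 and in 4.9% of all. A missing match says only that these letters are not in these windows.

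The gene with the lowest p after Acss2 was Hapln1, which encodes a link protein that fastens proteoglycans to hyaluronan in the extracellular matrix, including perineuronal nets. It stood at 240, 312 and 268 CPM with upACSS2 and at 120, 136 and 124 CPM with vector. All 3 upACSS2 libraries lay well above the vector libraries, which were close together, and the means differed 2.15-fold (log2 fold change 1.11 ± 0.12, adjusted p = 0.00759). The related link protein gene Hapln4 had the opposite sign, with 28.9, 14.1 and 35.1 CPM against 89.8, 59.2 and 90.1 CPM, again without overlap, but did not pass (-1.61 ± 0.37, adjusted p = 0.0979). Of 14 matrix genes tested, Hapln1 was the only one called, 10 had a log2 fold change above 0, and the median was 0.13. That median was -0.21 without upACSS2 replicate 1, -0.03 without vector replicate 1 and 0.60 without both replicate 2 libraries. The 3 matrix genes highest per length had 0.11 ± 0.30 (Ncan, neurocan), 0.46 ± 0.20 (Ptprz1, a receptor phosphatase that carries chondroitin sulfate) and 0.42 ± 0.39 (Bcan, brevican).

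Rxfp3, the G protein-coupled receptor for relaxin-3, also rose and stood at 52.8, 60.2 and 70.1 CPM with upACSS2 and at 31.1, 33.7 and 33.3 CPM with vector. The vector libraries varied little and all upACSS2 libraries lay above them (1.87-fold; log2 fold change 0.90 ± 0.11, adjusted p = 0.0125). Nmbr, the receptor for neuromedin B, had the highest log2 fold change of the called genes after Acss2, 1.23 ± 0.22 (adjusted p = 0.0479), from 17.3, 14.5 and 18.9 CPM against 8.95, 6.06 and 6.73 CPM. It was the only one of 20 neuropeptide and peptide receptor genes to pass, where 11 had a log2 fold change above 0 and the median was 0.04. Leaving out 1 library gave medians from -0.14 to 0.29, below 0 without upACSS2 replicate 3 or vector replicate 2. The 4 peptide genes highest per length were Sst (somatostatin, 0.44 ± 0.13), Cck (cholecystokinin, -0.52 ± 0.24), Npy (neuropeptide Y, 0.06 ± 0.36) and Sstr1 (a somatostatin receptor, -0.34 ± 0.26), none of which passed.

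Gabrg3, the gamma-3 subunit of the GABA-A receptor, stood at 44.3, 67.3 and 52.9 CPM with upACSS2 and at 29.4, 32.0 and 30.8 CPM with vector. All upACSS2 libraries exceeded the tight vector values, with replicate 2 the highest (log2 fold change 0.84 ± 0.14, adjusted p = 0.0479). Abat, GABA transaminase, which breaks GABA down, had 303, 367 and 298 CPM against 214, 222 and 213 CPM (0.58 ± 0.10, adjusted p = 0.0479). Cntnap4, a contactin-associated protein found at interneuron synapses, had 95.3, 125 and 107 CPM against 68.9, 61.2 and 64.7 CPM (0.75 ± 0.11, adjusted p = 0.0276). In both genes the lowest upACSS2 library lay clearly above the highest vector library. Grik1, the kainate receptor subunit GluK1, had 59.8, 77.4 and 57.9 CPM against 39.6, 44.3 and 37.5 CPM (0.68 ± 0.12, adjusted p = 0.0479).

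Among 22 subunits of AMPA, NMDA and GABA-A receptors, Gabrg3 alone passed, 15 had a log2 fold change above 0, and the median was 0.18. That median was 0.11 without upACSS2 replicate 2 and 0.07 without both replicate 2 libraries. An unadjusted p under 0.05 was found for 7 on the higher side (7.68% of all genes) and 3 on the lower (8.22%). Separate higher groups were found in 5 (11.3% of all genes) and separate lower groups in 0 (11.4%). Among the subunits highest per length were Gria1 (AMPA receptor GluA1, 0.20 ± 0.09) and the GABA-A subunits Gabra5 (-0.11 ± 0.18) and Gabra2 (0.00 ± 0.10), whose groups overlapped.

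**Figure D2:**
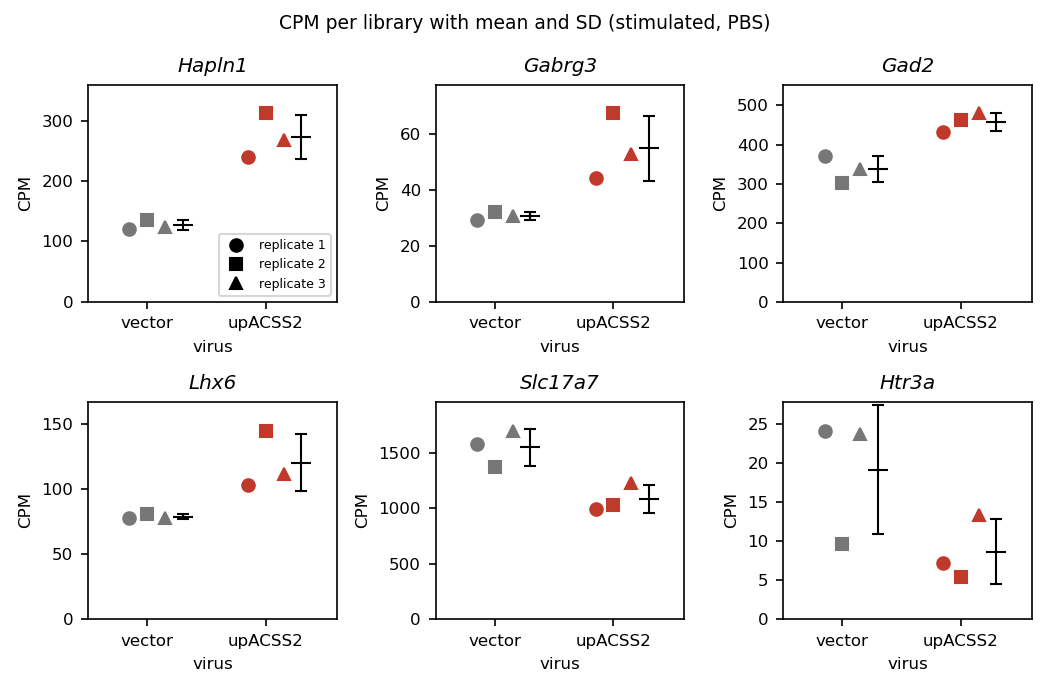
CPM per library (symbols by replicate) with the mean and SD of the 3 libraries beside them for 6 genes, vector in grey and upACSS2 in red. Hapln1 and Gabrg3 were called; Gad2, Lhx6 and Slc17a7 have separate groups without passing the test; in Htr3a vector replicate 2 (9.57 CPM) lies within the upACSS2 range.

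The other 6 genes that rose have varied roles. Megf10, an engulfment receptor of glia, had 32.4, 32.0 and 26.8 CPM against 17.1, 20.0 and 17.6 CPM (0.74 ± 0.13). Rnd3, a small GTPase that loosens the actin cytoskeleton, had 25.2, 34.0 and 27.8 CPM against 17.96, 16.9 and 19.6 CPM (0.68 ± 0.12). Nabp1, a single-strand DNA-binding protein of DNA repair, had 31.9, 41.0 and 37.4 CPM against 18.8, 17.6 and 20.2 CPM (0.97 ± 0.17). All 3 had an adjusted p of 0.0479, a value that the Benjamini-Hochberg adjustment gave to many called genes. Fam184b (0.67 ± 0.10, adjusted p = 0.0303), Lrrc73 (0.61 ± 0.10, adjusted p = 0.0479) and the zinc finger gene Zfp941 (0.70 ± 0.12, adjusted p = 0.0479) were the others.

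Of the genes that fell, Olfm4, a secreted glycoprotein of the olfactomedin family, had the lowest p. It stood at 2.39, 3.03 and 2.75 CPM with upACSS2 and at 7.35, 6.19 and 8.71 CPM with vector, so that the vector mean was 2.72-fold higher (log2 fold change -1.44 ± 0.20, adjusted p = 0.0276). Pisd-ps3, a pseudogene of phosphatidylserine decarboxylase whose reads may be shared with near-identical copies, had 66.9, 68.6 and 68.3 CPM against 121, 102 and 122 CPM (-0.76 ± 0.11, adjusted p = 0.0276). Its upACSS2 values were nearly equal, and vector replicate 2 was the lowest of the vector libraries. Nxph4, a neurexophilin that binds neurexins at the presynaptic membrane, had 1.71, 1.07 and 1.07 CPM against 3.86, 3.73 and 5.64 CPM (-1.77 ± 0.31, adjusted p = 0.0479). Col5a1, a chain of fibrillar collagen V, had 19.6, 18.1 and 17.5 CPM against 30.3, 36.0 and 42.6 CPM (-0.98 ± 0.16, adjusted p = 0.0479). For both genes the vector libraries spread more than the upACSS2 libraries and none fell within the upACSS2 range.

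Several genes that fell were expressed at low levels. Epor, the erythropoietin receptor, had 0.916, 0.786 and 0.688 CPM against 3.12, 1.74 and 2.45 CPM (-1.59 ± 0.28). Gpr1, a receptor for chemerin, rested on 3, 1 and 3 counts with upACSS2 and 8, 26 and 14 counts with vector, and overlaps the gene Zdbf2 (-2.82 ± 0.47). Dnah10, a heavy chain of axonemal dynein, had 0.739, 0.197 and 0.757 CPM against 2.98, 2.33 and 3.77 CPM (-2.43 ± 0.39). All 3 had an adjusted p of 0.0479, and the size of change in Gpr1 is set by single counts. Zglp1, a zinc finger gene known from the germ line, rested on 8, 6 and 3 counts against 15, 24 and 19 counts (-1.93 ± 0.34, adjusted p = 0.0479).

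Samd14 had 87.5, 92.3 and 93.5 CPM against 115, 123 and 129 CPM, the smallest called change (-0.43 ± 0.07, adjusted p = 0.0479). Rmc1, a subunit of the complex that activates Rab7 on late endosomes, had 28.9, 29.5 and 32.2 CPM against 44.2, 41.2 and 42.7 CPM (-0.50 ± 0.08, adjusted p = 0.0479). Rmc1 overlaps Npc1, and Ovca2, a serine hydrolase gene (-0.68 ± 0.12, adjusted p = 0.0479), overlaps Dph1, so their reads could be split between partners. Fer1l5, a ferlin family membrane protein that overlaps Lman2l, had -0.80 ± 0.12 (adjusted p = 0.0303). Shf, an SH2 adaptor (-0.55 ± 0.10), and Ankrd35 (-0.998 ± 0.16) had an adjusted p of 0.0479, and Iqcn (-1.58 ± 0.24) one of 0.0411. The remaining 2 called genes that fell, 4933412E12Rik and Gm1976, are predicted genes.

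Among the genes just outside the threshold on the higher side were Igfbp3, a binding protein of insulin-like growth factors (0.77 ± 0.14, adjusted p = 0.05001), Sprn, the prion-like protein shadoo (0.62 ± 0.11, adjusted p = 0.05001), Fam43a (0.79 ± 0.14, adjusted p = 0.0509) and Inha, the inhibin alpha subunit (0.59 ± 0.11, adjusted p = 0.0539). On the lower side were Inf2, an actin-nucleating formin (-0.66 ± 0.12), P2rx5, an ATP-gated channel (-1.36 ± 0.25), Car15, a carbonic anhydrase (-0.91 ± 0.17), Mturn (-0.54 ± 0.10) and Ctxn2 (-1.36 ± 0.26), with adjusted p from 0.0556 to 0.0562. Igfbp3 stood at 100, 110 and 83.5 CPM against 52.1, 67.7 and 51.7 CPM, without overlap.

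Gene lists for classes of hippocampal neurons were drawn up after values had been seen, which can favour members that share a direction. They are therefore described without a test, and the shares over all genes are given for scale only. No member of these lists passed the test of single genes. All 11 pan-GABAergic genes had a log2 fold change above 0 (median 0.31), and 6 of them had groups that did not overlap, which was so in the higher direction for 11.3% of all genes tested. Gad2, one of the GABA-synthesising enzymes, stood at 433, 462 and 480 CPM against 372, 304 and 338 CPM (0.44 ± 0.11, adjusted p = 0.110). All 14 genes of interneurons from the medial ganglionic eminence, the embryonic source of somatostatin and parvalbumin cells, also lay above 0 (median 0.40), and 8 had separate groups. Lhx6, the transcription factor that specifies these cells, stood at 103, 145 and 112 CPM against 77.7, 80.6 and 77.4 CPM (0.61 ± 0.12, adjusted p = 0.0743). Nxph1, a neurexophilin of the same cells, stood at 115, 134 and 112 CPM against 76.1, 90.3 and 71.9 CPM (0.60 ± 0.11, adjusted p = 0.0556), and Sst at 238, 281 and 231 CPM against 198, 177 and 175 CPM (0.44 ± 0.13, adjusted p = 0.147). In Lhx6, Nxph1 and Sst every upACSS2 library lay above every vector library.

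The 10 genes of interneurons from the caudal ganglionic eminence, which give rise to cholecystokinin and vasoactive intestinal peptide cells, all lay below 0 (median -0.47), but the groups overlapped in each. Htr3a, the ionotropic serotonin receptor of these cells, stood at 7.15, 5.42 and 13.3 CPM against 24.1, 9.57 and 23.7 CPM (-1.15 ± 0.41, adjusted p = 0.217), and the cannabinoid receptor gene Cnr1 at 225, 238 and 382 CPM against 609, 247 and 467 CPM (-0.65 ± 0.31, adjusted p = 0.331). Vector replicate 2 was the low library in both and lay inside the upACSS2 range. The list median was -0.73 without that library and -0.28 without upACSS2 replicate 2. Of 11 genes of excitatory neurons, 8 lay below 0 (median -0.32) and 5 had separate lower groups, which was so for 11.4% of all genes. Slc17a7, the vesicular glutamate transporter, stood at 993, 1027 and 1230 CPM against 1585, 1375 and 1703 CPM (-0.52 ± 0.15, adjusted p = 0.142), and Neurod2, a transcription factor of glutamatergic neurons, at 76.8, 81.2 and 95.2 CPM against 111, 121 and 132 CPM (-0.52 ± 0.13, adjusted p = 0.110). Mef2c, an activity-regulated factor, went the other way, with 167, 246 and 173 CPM against 123, 128 and 139 CPM (0.59 ± 0.14, adjusted p = 0.106). The excitatory median was 0.04 in stimulated tau cultures and 0.07 in unstimulated PBS cultures, with 7 of 11 genes above 0 in each. In the same order, the caudal-eminence medians were 0.24 and -0.04, the pan-GABAergic 0.31 and 0.32, and the medial-eminence 0.32 and 0.38. In these bulk libraries fewer cells of a type and less RNA per cell cannot be told apart. The summed neuronal markers overlapped between the groups, as given above, and the part of the makeup of the cultures in these values was not tested.

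Genes that respond to activity did not pass the test in either direction. Among 20 activity-induced transcription factors, 16 had a log2 fold change below 0 (median -0.19), 4 had an unadjusted p under 0.05 on the lower side (8.22% of all genes did) and none on the higher side (7.68%). Fos had 1256, 1288 and 1379 CPM with upACSS2 against 1465, 1388 and 1680 CPM with vector (-0.21 ± 0.09, adjusted p = 0.299). The next highest per length were Junb (-0.20 ± 0.11), Egr4 (-0.25 ± 0.14) and Nr4a1 (-0.08 ± 0.09). Of 20 activity-induced effectors, 14 lay below 0 (median -0.13, from -0.20 without vector replicate 2 to -0.04 without vector replicate 3), and Arc, which regulates AMPA receptors at the synapse, had 693, 851 and 842 CPM against 701, 934 and 1076 CPM (-0.19 ± 0.16, adjusted p = 0.591). Vgf (0.13 ± 0.26), Btg2 (-0.13 ± 0.09) and Scg2 (-0.13 ± 0.19), the others of highest level per length, had overlapping groups.

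The list medians of genes that read, write and remove histone acetylation were likewise near 0. None of 15 acetyltransferases and acetyl-lysine readers passed (median -0.02, range -0.28 to 0.14), nor did any of 18 deacetylases and sirtuins (median 0.02, range -0.45 to 0.32). Brd2, a bromodomain reader and the highest of its list per length, had 0.06 ± 0.07, and Ncoa1, Kat2a and Kat7 had -0.07, -0.11 and 0.05. Sirt2, an abundant deacetylase of oligodendrocytes, had 469, 117 and 240 CPM against 145, 329 and 188 CPM, with a wide spread within both groups.

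The list with the median farthest from 0 among those not drawn up from these values was proliferation: all 16 genes lay above 0 (median 0.64), 10 had an unadjusted p under 0.05 (7.68% of all genes did on the higher side), 8 had separate higher groups (11.3% of all genes did), and none passed the adjusted threshold. Top2a, a topoisomerase of dividing cells, stood at 42.5, 84.7 and 46.8 CPM against 38.0, 27.2 and 40.7 CPM (0.72 ± 0.27, adjusted p = 0.229). The highest value was in upACSS2 replicate 2 and the lowest in vector replicate 2. Without upACSS2 replicate 2 the median was 0.22, and without both replicate 2 libraries it was 0.14. Pcna, Mcm6 and Mcm5, the other members highest per length, had 0.21 ± 0.17, 0.28 ± 0.18 and 0.59 ± 0.20. Both replicate 2 libraries were also low in summed astrocyte markers, as given above. They differed in summed oligodendrocyte lineage markers, at 1065 CPM with upACSS2 and 2658 CPM with vector. The part of the glial content in this list was not tested. In stimulated tau cultures the proliferation median was 0.56, with 15 of 16 genes above 0. In unstimulated PBS cultures it was 0.98, with all 16 above 0.

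Genes of the unfolded protein and integrated stress responses lay mostly above 0 (13 of 15, median 0.21), 7 of them higher with an unadjusted p under 0.05 (7.68% of all genes) and none passing the adjusted threshold. Atf5, a transcription factor of the stress response, had 91.5, 147 and 76.2 CPM against 52.6, 59.3 and 50.9 CPM (0.95 ± 0.29, adjusted p = 0.163) and was named after its value was seen. Calr, Atf4, Hsp90b1 and Hspa5, the members highest per length, had 0.30 ± 0.12, 0.03 ± 0.09, 0.21 ± 0.10 and 0.28 ± 0.12. Without upACSS2 replicate 2 the list median was 0.13. In stimulated tau cultures the median was -0.20, with 3 of 15 genes above 0. In unstimulated PBS cultures it was 0.16, with 12 of 15 above 0.

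The remaining lists held no called gene. Lipid and energy genes had medians of 0.17 (13 genes of fatty acid oxidation, 6 with separate higher groups, against 11.3% of all genes), 0.10 (15 of fatty acid synthesis), -0.11 (23 of cholesterol synthesis, 19 below 0) and -0.15 (20 of glycolysis, 14 below 0). These medians moved with single libraries: oxidation to 0.065 and synthesis to -0.04 without upACSS2 replicate 1, cholesterol to 0.07 without upACSS2 replicate 2, and glycolysis to -0.0039 without vector replicate 3 and -0.27 without vector replicate 2. Cpt1a, the carnitine transferase that admits fatty acids to mitochondria, had 80.2, 86.0 and 71.6 CPM against 56.4, 48.2 and 55.8 CPM (0.57 ± 0.20, adjusted p = 0.201) and was named after its value was seen. Scd2, Hmgcs1 and Aldoa, the highest per length of the last 3 of these lists in turn, had -0.05 ± 0.16, -0.03 ± 0.20 and -0.22 ± 0.15. Synaptic genes had medians of -0.08 (18 presynaptic) and -0.08 (16 postsynaptic), led per length by Cplx2 (-0.17 ± 0.11) and Camk2a (-0.26 ± 0.14), and 18 potassium and HCN channels had -0.01, led by Kcna1 (-0.11 ± 0.18). Interferon-stimulated genes (12 tested) and targets of NF-kB (10 tested) had medians of -0.24 and -0.02, which ran from -0.44 to -0.05 and from -0.23 to 0.20 when 1 library was left out. The cell type lists had medians of 0.03 (neuronal), 0.03 (astrocyte), -0.25 (4 microglial genes tested), 0.40 (oligodendrocyte lineage, -0.23 without upACSS2 replicate 1) and -0.02 (8 endothelial, mural and meningeal genes tested).

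**Figure D3:**
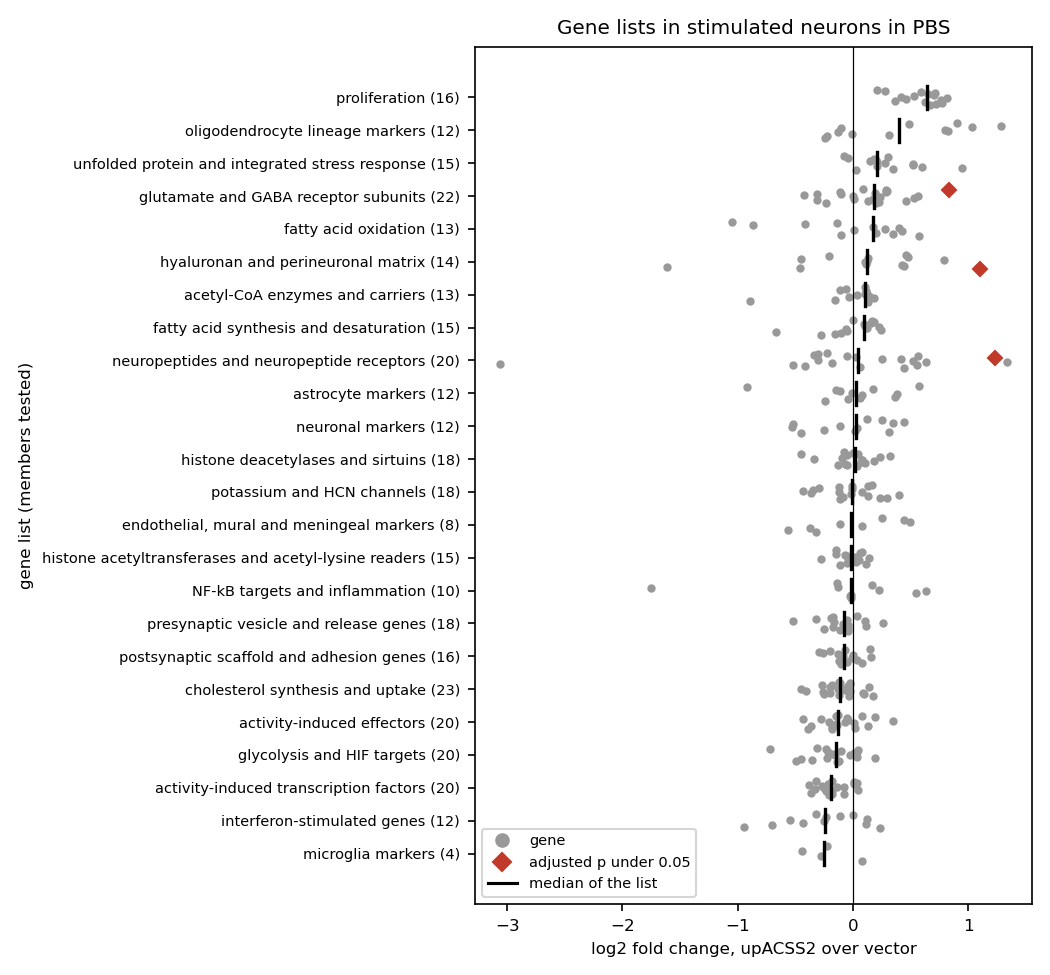
Log2 fold change of upACSS2 over vector for every tested member of 24 gene lists, with the number tested in brackets, a black bar at the list median and red diamonds for the 3 called members (Nmbr, Hapln1 and Gabrg3). Most medians lie within 0.25 of 0; proliferation stands at 0.64 and oligodendrocyte lineage at 0.40.

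The called genes were followed in 2 comparisons of upACSS2 with vector that share no library with this one. They were chosen for their difference in PBS, which favours a smaller size elsewhere. In stimulated tau cultures, where 140 genes were called (0.937%), 28 of the 30 genes other than Acss2 had the same direction (93.3%, against 55.2% of all genes), 8 were called, and the median size of the log2 fold change was 0.32 instead of 0.82. In unstimulated PBS cultures, where 20 were called (0.135%), 28 of 29 with a value had the same direction (96.6%, against 60.2% of all genes), 3 were called, and the median size was 0.73. The treatment entry of the unstimulated upACSS2 libraries titled PBS names hAD-tau, and the titles were followed. Rxfp3, Nmbr and Pisd-ps3 were called in all 3 comparisons. In stimulated PBS, stimulated tau and unstimulated PBS cultures, Rxfp3 had log2 fold changes of 0.90, 0.69 and 0.85, Nmbr of 1.23, 1.18 and 1.09, and Pisd-ps3 of -0.76, -0.62 and -0.90. Hapln1 had 1.11, 0.29 and 0.67 in the same order. With tau, the Hapln1 libraries stood at 196, 177 and 199 CPM with upACSS2 and 135, 185 and 147 CPM with vector, and the groups overlapped. The 12 astrocyte markers had median log2 fold changes of 0.03 in stimulated PBS, 0.83 in stimulated tau and -0.74 in unstimulated PBS cultures. The part of glial content in these comparisons was not tested.

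**Figure D4:**
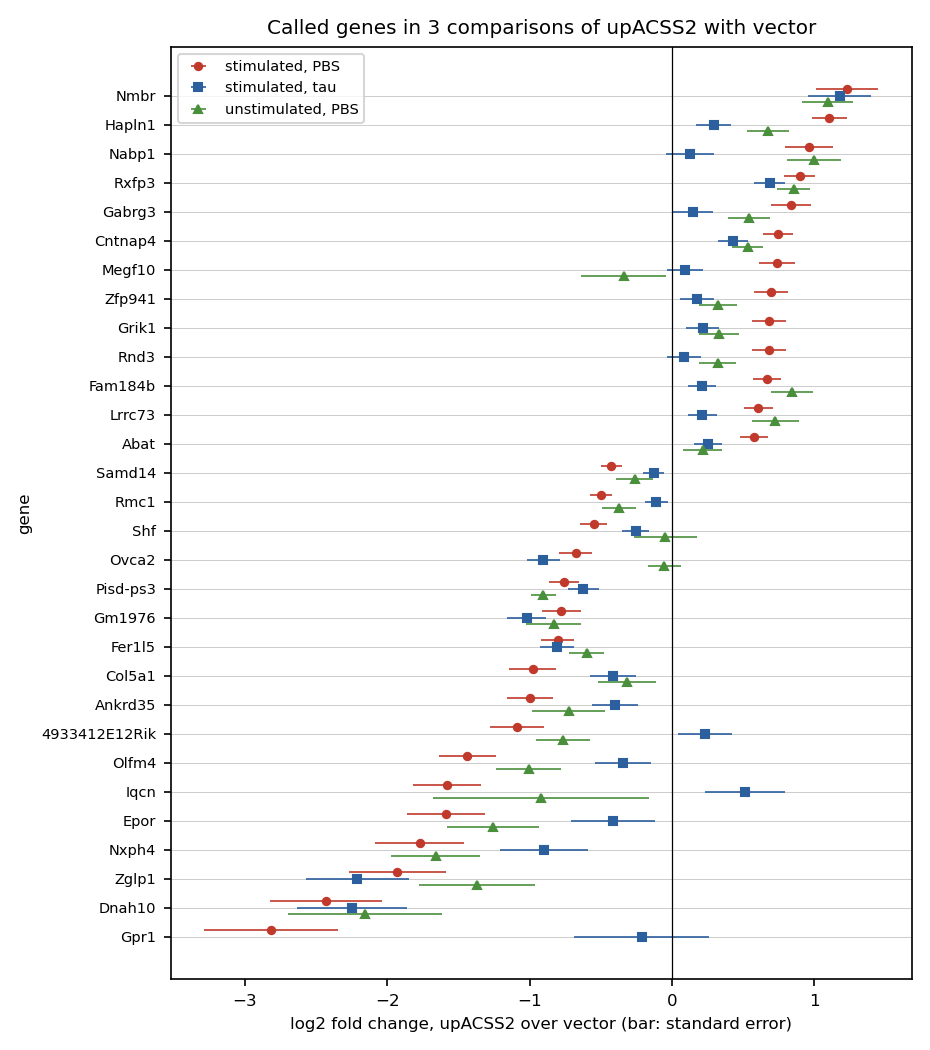
Log2 fold change of upACSS2 over vector with SE for the 30 called genes other than Acss2 in stimulated PBS (red circles), stimulated tau (blue squares) and unstimulated PBS cultures (green triangles; Gpr1 has no value). Iqcn and 4933412E12Rik lie on the other side of 0 in tau, and Megf10 in unstimulated cultures.

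The differences between these effects were tested directly. No gene passed for the effect in tau against that in PBS in the main edgeR fit, where 2135 genes (14.3%) had an unadjusted p under 0.05. DESeq2 called 131, and edgeR with a replicate block also called genes, as given below. The lowest p belonged to Rnpc3, a protein of the minor spliceosome, with 0.48 ± 0.13 in PBS and -0.70 ± 0.13 in tau (adjusted p of the difference 0.205), Amy1, an amylase gene with near-identical copies (0.65 ± 0.30 and -1.84 ± 0.31), and Sipa1l3, a Rap GTPase-activating protein (-0.34 ± 0.09 and 0.37 ± 0.09). For Acss2 itself the difference was 0.79 (adjusted p = 0.263) and for Hapln1 -0.81 (adjusted p = 0.233). No gene passed for stimulated against unstimulated cultures with edgeR or DESeq2, where 718 of 14822 genes (4.84%) had an unadjusted p under 0.05, and stimulation cannot be told apart from the separate tables that hold the 2 sets. The lowest p belonged to Sap18, a subunit of a histone deacetylase complex (-0.64 ± 0.14 in stimulated and 0.04 ± 0.11 in unstimulated cultures), Midn (-0.05 ± 0.14 and 0.64 ± 0.11) and Gadd45b, an activity-induced gene of DNA demethylation (-0.28 ± 0.20 and 0.57 ± 0.15), each with an adjusted p of the difference of 0.795.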

How the data were processed

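Total RNA from cultured neurons was sequenced (NEB library kit, per the labels' protocols). The values deposited by the authors are unnormalised read counts for each gene symbol and library. The submitters' processing notes name STAR, featureCounts, HTSeq, DESeq2 and the mm10 build, without versions or roles; the strand setting is not given in the sources used here. The 12 libraries of the stimulated table entered 1 fit in edgeR 4.0.16 (R 4.3.3): TMM scaling, the default expression filter, quasi-likelihood F test, two-sided, Benjamini-Hochberg adjustment over all genes at 0.05. Stimulated and unstimulated PBS libraries were joined in a second fit of 12 libraries. CPM refer to TMM-scaled library sizes; levels per length use GENCODE exon lengths, and positions come from RefSeq GRCm38.p6. No 2 libraries of a group agreed within sampling noise, and the edgeR step was tested on simulated data. Alternatives were DESeq2 1.42.0, RLE scaling, no filter, other sets of libraries and a replicate block.

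Named genes were Acss2, the called genes, each list's called members and up to 4 members highest in CPM per length, the 5 genes of lowest p just outside the threshold on each side with a mean of at least 1 CPM, and the 3 of lowest p for each difference of effect. Other named genes were chosen after their values were seen. The comparison, lists and rules were chosen with earlier results of these data known, and the neuron class lists after values of this comparison were seen. A few genes that met the naming rule are not reported here.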

Additional observations from a re-analysis of the deposited data

Results flagged for a closer look

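Iqcn, a gene of low expression, fell with upACSS2 in PBS (log2 fold change -1.58 ± 0.24, edgeR adjusted p = 0.0411) and had the opposite sign in tau without passing (0.51 ± 0.28, adjusted p = 0.380), with no overlap of the virus groups in either. In PBS it stood at 0.443, 0.477 and 0.481 CPM with upACSS2 and 1.29, 1.20 and 1.75 CPM with vector. In tau it stood at 0.679, 0.592 and 0.511 CPM with upACSS2 and 0.368, 0.454 and 0.413 CPM with vector. The difference of the log2 fold changes was 2.10 (unadjusted p = 9.71e-05) and did not pass after adjustment over all genes (edgeR, adjusted p = 0.205). In PBS the values rest on 14 to 17 counts with upACSS2 and 28 to 49 counts with vector.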

How the results depend on the processing

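The 31 calls became 420 with DESeq2, 51 without a filter on low counts (30 of the 31 among them), 280 with the replicate block, 2 with only the 6 libraries compared, 1 with those 6 and the replicate block, and 1 without replicate 2 of both groups, an alternative chosen after seeing the data. All 31 were among the calls of DESeq2 and of the replicate block. Leaving out 1 of the 6 libraries gave 1 to 74 calls. RLE size factors gave the same 31. For the effect in tau against PBS, 0 calls became 131 with DESeq2 and 166 with the replicate block; the cause was not tested. For stimulated against unstimulated cultures all alternatives gave 0. Acss2 kept its call under every alternative. The replicate numbers were not taken as pairs. Between the upACSS2 and vector groups in PBS, the deviations of same-numbered libraries from their group means correlated at -0.111, 0.0909 and 0.145. The tau groups were not part of this check, so it cannot settle whether a replicate effect is shared by all groups of the fit. Of 389 values of the other called genes under alternatives, all had the same direction and 148 passed the threshold. Every alternative drew on the same libraries, and the groups of each called gene did not overlap, so the direction could hardly change. Of 364 list medians, 21 moved by more than the spread between replicates. Genes with few counts, such as Gpr1, are limited by depth.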
